A study of Mus musculus with 6 samples.

Results

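Exons and introns were examined whose recovery with Strep-tagged mouse Gtsf1 was higher after ultraviolet crosslinking than without it. The members were chosen from the measured values of all 6 libraries. A feature had to be an exon or an intron of a gene other than Gtsf1, with a mean of at least 1 RPM (the reads of a feature scaled to the total reads of its library) over the 4 crosslinked libraries. For each pull-down and its input, a ratio was taken as log2(pull-down RPM + 1) minus log2(input RPM + 1). A feature was kept when this ratio in both crosslinked pairs was at least 1 above the ratio of the non-crosslinked pair, and features with identical counts were counted once. The rule kept 182 features, 79 exons and 103 introns of 157 genes, out of 21282 distinct exons and introns past the filter (0.855%). All values of the members in the 6 libraries were used by the rule, so they are given as a description. Where fits over all features are given, the count of members called is printed beside the background, and nothing is read from it. The features of Gtsf1 itself, of which 1 distinct exon or intron met the threshold, were left out by the rule. The files do not separate the construct from the cell's own gene.

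The 6 libraries came from eCLIP, in which short-wave light joins RNA covalently to the proteins it touches ahead of purification and sequencing of the bound RNA. All were made from P19 cells, a mouse embryonal carcinoma line, 48 h after transient transfection with mouse Gtsf1 carrying a C-terminal TEV-Strep tag in the pEF vector, which uses the EF-1alpha promoter. Cells irradiated at 254 nm and 400 mJ gave 2 crosslinked pull-downs and 2 crosslinked inputs (n = 2 each), called UV libraries below. Cells without irradiation gave 1 pull-down and 1 input (n = 1 each), called no-UV libraries. Lysates were treated with RNase I and MagStrep beads were used to capture the tag. Inputs and non-crosslinked libraries thus carried the transfected protein too, no library from untransfected or untagged cells was analysed here, and the labels do not say that the replicates were separate cultures.

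Gtsf1, called Asterix in flies, is a small protein with CHHC zinc fingers that is needed for transposon silencing in the piRNA pathway and is known to bind RNA, tRNA in particular. A gene is first copied whole into pre-mRNA, from which introns are removed while exons are joined into mRNA. Reads on introns therefore come mostly from unspliced or excised RNA, and reads on exons from either form. In eCLIP the input shows what was in the lysate, while the no-UV pull-down holds what stays on the beads without a covalent bond.

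Library totals ran from 13168593 to 18418166 reads, so that 1 read stood for 0.0543 to 0.0759 RPM. In the inputs, the summed exon level of 8 genes that mark P19 cells, such as Pou5f1, Lin28a and Sox2, lay between 62.2 and 80.4 RPM, with 5 of the 8 at 1 RPM or more in every input. The summed levels of endoderm markers (0.0707 to 0.676 RPM, with 1 of 4 genes at 0 in all inputs), mesoderm markers (0.212 to 0.802 RPM, with 1 of 3 at 0) and fibroblast markers (0.283 to 0.630 RPM) were low, and those of neural markers lay between 6.43 and 7.72 RPM, mostly from Sox1 and Tubb3. These levels are for the whole lysate, in which fewer cells of a type and less RNA per cell cannot be told apart.

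The working description of the members as enriched by crosslinking held for a minority of them. In 33 members (18.1%) both crosslinked ratios were at least 1, so that these were higher in pull-down than in input. In 99 members (54.4%) both crosslinked ratios were at or below 0, and the rule was met because the no-UV pull-down lay far below its input. The other 50 members (27.5%) lay between. Over all 182, the median ratio was -0.07 and -0.10 in the crosslinked pairs and -1.27 in the non-crosslinked pair. Over all 21282 features the medians were -0.20, -0.19 and -0.44. Of all features, 2.09% had both crosslinked ratios at least 1 and 68.4% had both at or below 0. A non-crosslinked ratio at or below -1 was found for 6.73% of all features. This split was made after the values were seen, and it is used below only to order the description.

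**Figure D1:**
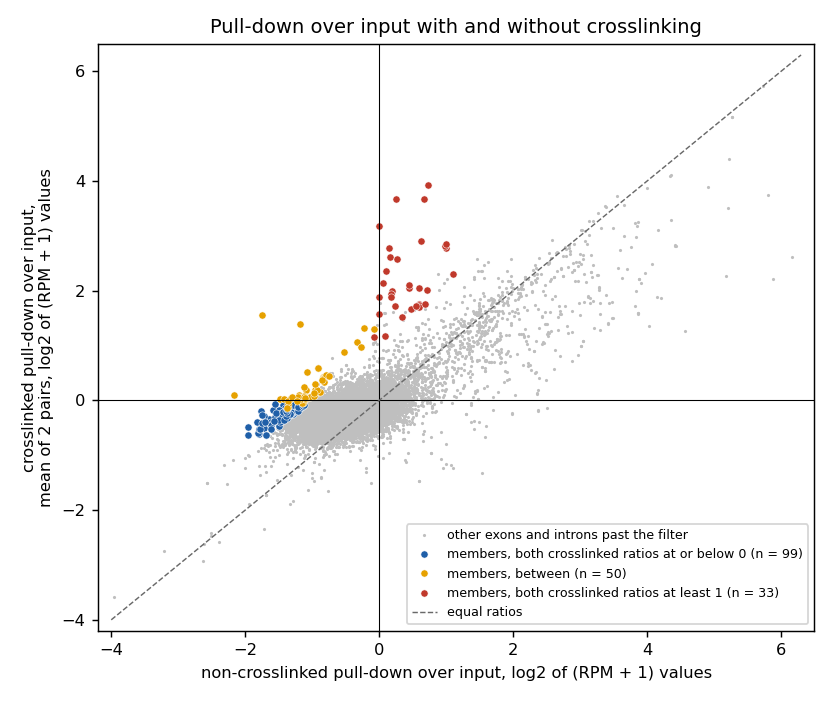
Each point is an exon or intron; the horizontal axis is the log2 ratio of the non-crosslinked pair and the vertical axis the mean log2 ratio of the 2 crosslinked pairs, both on (RPM + 1) values. The 33 red members lie above 1 on the vertical axis, while the 99 blue members lie below 0 on both axes, at a median non-crosslinked ratio of -1.40.

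In every one of the 182 members, both UV pull-downs exceeded the no-UV pull-down, as they did in 92.6% of all features. The median difference of UV minus no-UV pull-down was 1.72 (log2) in the members and 0.71 in all features. The inputs also differed with crosslinking. Both UV inputs exceeded the no-UV input in 149 members (81.9%) and in 90.8% of all features, with a median difference of 0.42 and 0.50 (log2). The non-crosslinked groups hold 1 library each, so the spread of the lower level is unknown.

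Summed over the members, the UV pull-downs held 4035 and 3577 RPM, the UV inputs 2107 and 1928 RPM, the no-UV input 1287 RPM and the no-UV pull-down 595 RPM. The first intron of Gm20388, a predicted gene, made up much of this. Without it the UV pull-downs held 1932 and 2008 RPM and the UV inputs 1843 and 1693 RPM, against 1203 RPM in the no-UV input and 426 RPM in the no-UV pull-down. Pull-down and input were then close with crosslinking and far apart without it.

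Among the 33 members that were higher in the UV pull-down, Gm20388_intron1_1 was by far the most abundant. It stood at 2103 and 1569 RPM in the UV pull-downs (1836 ± 378, SD, n = 2) and at 265 and 235 RPM in the UV inputs (250 ± 20.7, SD, n = 2). The no-UV pull-down held 169 RPM and its input 84.2 RPM. Even without crosslinking this intron was higher in pull-down than in input, with a ratio of 0.99 against 2.99 and 2.73 with crosslinking. This was not particular to it. Over the 33 members the non-crosslinked ratio had a median of 0.44 and ran from -0.07 to 1.11. Gm20388 was not matched in the RefSeq table, so no coordinates are given.

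Several introns were almost unread in the inputs and clearly read in the UV pull-downs. Ctnna3, the gene of alpha-T-catenin, a cell adhesion protein of the heart, spans chr10:63430098-65003667 on the + strand of the mouse build GRCm38. Ctnna3_intron4_3 had 11.6 and 23.7 RPM in the UV pull-downs and 0.166 and 0.151 RPM in the UV inputs. The no-UV pull-down held 0.702 RPM and its input 0.0285 RPM. With ratios of 3.44, 4.43 and 0.73 it had the highest smaller excess of all 21282 features, 2.71, on the (RPM + 1) scale. Gsap encodes the gamma-secretase activating protein and spans chr5:21176019-21291737 on the + strand. Gsap_intron2_10 went from 0.0387 and 0.0271 RPM in the UV inputs to 5.72 and 24.9 RPM in the UV pull-downs, with 0.199 RPM in the no-UV pull-down and 0.00883 RPM in its input. In both genes, the 2 pull-downs lay above the other 4 libraries without overlap, but also lay far apart from each other, most of all in Gsap.

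Sim2 encodes a bHLH-PAS transcription factor and spans chr16:94085104-94127032. Sim2_intron8_1 had 10.8 and 7.64 RPM in the UV pull-downs (9.22 ± 2.25, SD, n = 2), 0.301 and 0.380 RPM in the UV inputs, 0.598 RPM in the no-UV pull-down and 0.0353 RPM in the no-UV input. Here the first UV pull-down was the higher one. Paqr5, a membrane progestin receptor gene at chr9:61953738-62026852 on the − strand, had 2.59 and 4.58 RPM in the UV pull-downs for Paqr5_intron1_1. All 4 other libraries lay at or below 0.0416 RPM for this intron, which is less than 1 read.

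Wdtc1, which encodes a WD-repeat and tetratricopeptide protein, held 3 members. Wdtc1_intron1_3 stood at 4.08 and 3.93 RPM in the UV pull-downs (4.00 ± 0.106, SD, n = 2) and 0.628 and 0.532 RPM in the UV inputs, with 0.872 and 0.342 RPM in the no-UV pull-down and input. The replicates were close to each other in this intron. Wdtc1_intron1_1 and Wdtc1_intron3_5 had crosslinked ratios between 1.45 and 1.82. Introns of overlapping gene models can share reads, so the 3 were not independent.

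Exons in this group came from several kinds of gene. Eef1a1 encodes the elongation factor that carries charged tRNAs to the ribosome, and lies at chr9:78478453-78481724 on the − strand. Eef1a1_exon1_8 had 5.65 and 13.3 RPM in the UV pull-downs, which was 91.0 and 211 reads. The UV inputs had 1 and 2 reads, and both non-crosslinked libraries had 0 reads, which allows up to 0.212 RPM in the input and 0.228 RPM in the pull-down. The transfected construct carries the EF-1alpha promoter and the files do not separate its reads from those of the mouse gene; the origin of these reads was not tested. Other copies of the gene in the genome could also share its reads.

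Znrf2, an E3 ubiquitin ligase gene at chr6:54816916-54890224 on the + strand, showed close replicates in Znrf2_exon1_1. The UV pull-downs held 9.36 and 11.3 RPM (10.3 ± 1.37, SD, n = 2), the UV inputs 0.524 and 0.702 RPM, the no-UV pull-down 1.94 RPM and its input 0.495 RPM. In Prex1, which encodes an exchange factor for the small GTPase Rac, Prex1_exon40_8 stood at 8.17 and 10.3 RPM against 0.775 and 0.615 RPM in the UV inputs. Its no-UV pull-down and input were at 0.692 and 0.400 RPM, so that the ratio without crosslinking was 0.27. Prex1_exon14_6 differed little from it, at 7.93 and 10.0 RPM in the UV pull-downs. Azin2_exon11_5, from the gene of an inhibitor of antizyme in polyamine control, had 2.95 and 8.72 RPM in the UV pull-downs and at most 0.234 RPM in each of the other 4 libraries.

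Dgcr6, a gene of the region that is lost in DiGeorge syndrome in humans, held 4 members that carried nearly the same counts. Dgcr6_exon3_3 had 4.36 and 11.7 RPM in the UV pull-downs and 0.617 and 2.69 RPM in the UV inputs. Its no-UV pull-down held 1.01 RPM and its input 0.253 RPM. Both the input and the pull-down of the second pair were higher than those of the first, and the ratios of the pairs were therefore alike at 1.73 and 1.78.

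**Figure D2:**
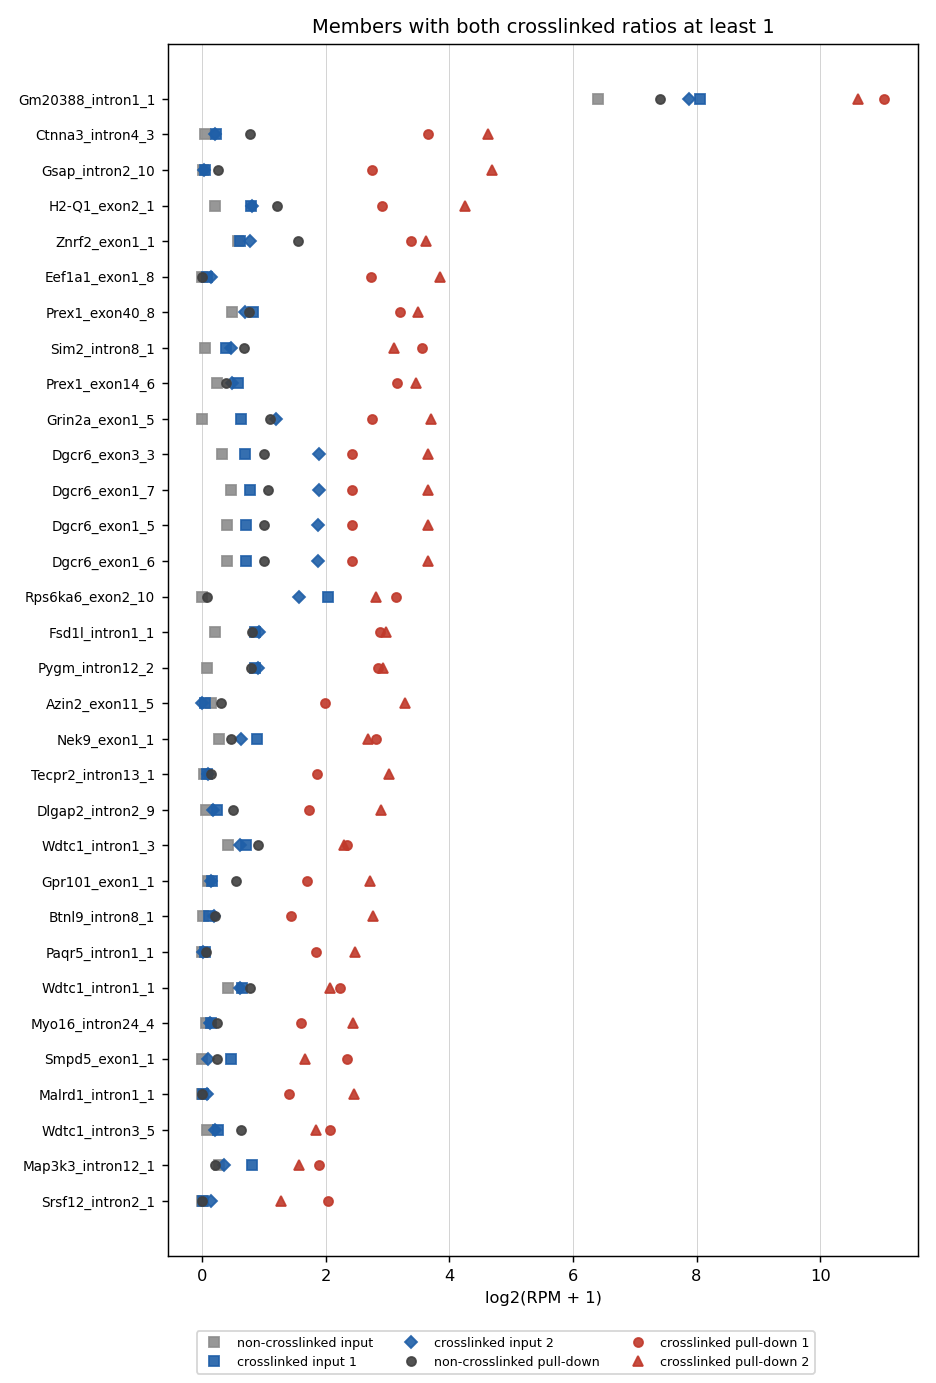
Level in every library of 32 of the 33 members with both crosslinked ratios at least 1, as log2(RPM + 1); squares and diamonds are inputs, circles and triangles pull-downs, and red marks the UV pull-downs. The red symbols lie to the right of the 4 other libraries in all 32, and the second pull-down (triangle) lies above the first in 22 of them.

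The second UV pull-down exceeded the first in 23 of the 33 (69.7%), with a median difference of 0.85 on the log2(RPM + 1) scale. Over all 21282 exons and introns it did so in 37.2%, with a median difference of -0.07. Among 260 tRNA features it did so in 258, with a median difference of 0.93. The pull-downs thus differed from each other in these 33 members in the same direction as in tRNA; whether these go together was not tested. Depth was low for some of the 33. In 11 of them the UV inputs held 3 reads or fewer each, and in 11 both non-crosslinked libraries did, so that these ratios rest largely on the UV pull-downs and the pseudocount. Reads were also split between features, as fractional counts stood in 179 of the 182 members (98.4%) and in 95.5% of all features.

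The 50 members between the 2 groups included some of the most abundant features. Gm47283_intron2_2, of a predicted gene, had 153 and 202 RPM in the UV pull-downs and 113 and 120 RPM in the UV inputs, against 42.6 RPM in the no-UV pull-down and 80.8 RPM in its input. Gm47283_intron4_4 had nearly the same values, from 152 to 202 RPM in the UV pull-downs. Gm38393_exon1_2 stood at 156 and 105 RPM in the UV pull-downs and 130 and 96.1 RPM in the UV inputs. In this exon the groups overlapped, and the no-UV pull-down was lowest at 37.6 RPM against 74.3 RPM in its input.

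Gm21887_intron1_2 was higher in the pull-down in both crosslinked pairs. Its gene is listed in RefSeq as Erdr1, at chrX:170010526-170018797. The UV pull-downs held 34.3 and 51.3 RPM, the UV inputs 17.1 and 22.0 RPM, the no-UV pull-down 16.0 RPM and its input 20.5 RPM. Tra2a encodes a splicing regulator of the SR-like family and lies at chr6:49243921-49264248 on the − strand. Tra2a_exon1_1 had 19.2 and 19.7 RPM in the UV pull-downs and 16.9 and 17.6 RPM in the UV inputs, with 5.25 RPM in the no-UV pull-down and 10.5 RPM in its input. Crosslinked pull-down and input were close to each other here, whereas the no-UV pull-down was below its input.

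The crosslinked pairs went apart in Washc1, which encodes a subunit of the WASH complex on endosomes. Washc1_exon11_1 stood at 5.96 and 18.0 RPM in the UV pull-downs, and at 6.76 and 1.49 RPM in the UV inputs. The ratio was -0.16 in the first pair and 2.93 in the second, with -1.19 in the non-crosslinked pair. Washc1_exon11_3 had ratios of -0.12, 3.23 and -1.76. Elf1, an ETS transcription factor gene that was singled out after its values were seen, also differed between its pairs. Elf1_intron1_1 had 7.06 and 16.8 RPM in the UV pull-downs and 13.3 and 7.66 RPM in the UV inputs, with ratios of -0.83 and 1.04, while the no-UV pull-down held 2.40 RPM against 14.2 RPM in its input.

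The 99 members that were not above input after crosslinking were led in abundance by introns. Nipbl, the loader of the cohesin complex, spans chr15:8289824-8465315. Nipbl_intron1_1 had 36.1 and 32.2 RPM in the UV pull-downs (34.2 ± 2.78, SD, n = 2) and 46.8 and 39.3 RPM in the UV inputs (43.0 ± 5.29, SD, n = 2). The no-UV pull-down held 9.37 RPM and its input 25.9 RPM. All 4 crosslinked libraries were thus higher than both non-crosslinked ones, and the pull-downs were below the inputs.

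Pola1 encodes the catalytic subunit of DNA polymerase alpha and spans chrX:93304766-93632387 on the − strand. Of its introns, 4 were members. The most abundant, Pola1_intron26_1, stood at 30.9 and 35.7 RPM in the UV pull-downs, 39.6 and 46.4 RPM in the UV inputs, 8.44 RPM in the no-UV pull-down and 25.5 RPM in its input. The others, introns 24, 34 and 36, had crosslinked ratios from -0.43 to -0.02 and non-crosslinked ratios from -1.70 to -1.30. The pattern of a low no-UV pull-down was therefore seen in 4 introns of this gene.

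Cpsf6 encodes a subunit of a cleavage factor, and Cpsf6_exon10_8 had 16.5 and 14.8 RPM in the UV pull-downs, 25.4 and 20.1 RPM in the UV inputs, 4.00 RPM in the no-UV pull-down and 15.5 RPM in its input. Cstf3 encodes a cleavage stimulation factor, and Cstf3_intron3_1 had 22.1 and 18.4 RPM in the UV pull-downs and 26.0 and 24.6 RPM in the UV inputs, with 4.63 RPM and 14.6 RPM in the no-UV pull-down and input. Papola, a poly(A) polymerase gene, held the members Papola_exon21_9 and Papola_exon22_1, with crosslinked ratios from -0.52 to -0.21, and a non-crosslinked ratio of -1.54 in the former. Ythdf3, a reader of N6-methyladenosine, held Ythdf3_intron3_1 and Ythdf3_intron3_4, with crosslinked ratios from -0.28 to -0.07. In all of these the no-UV pull-down was the lowest library.

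Eif4b, an initiation factor gene, lies at chr15:102073773-102097173 on the + strand. Eif4b_intron1_1 had 9.14 and 8.16 RPM in the UV pull-downs and 9.61 and 8.29 RPM in the UV inputs, which overlapped. Its no-UV pull-down held 1.73 RPM and its input 5.24 RPM.

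Ptbp2, the neuronal polypyrimidine tract-binding protein, held 3 members. Ptbp2_exon1_6 stood at 13.7 and 10.4 RPM in the UV pull-downs, 18.8 and 15.4 RPM in the UV inputs, 2.56 RPM in the no-UV pull-down and 12.8 RPM in its input. Its ratio of -1.96 was the lowest non-crosslinked ratio among the 99. Tra2b, a splicing regulator related to Tra2a, held Tra2b_exon9_9 with 2.75 and 2.09 RPM in the UV pull-downs, 4.29 and 3.53 RPM in the UV inputs, 0.658 RPM in the no-UV pull-down and 4.10 RPM in its input. Further features of the 99 named by the same rule lay in Ubtd2, Pde3b, Ankrd28, Nufip2, Pkhd1, Tcf20, Herc1 and Zfp207. The crosslinked ratios of these lay between -0.51 and -0.04 and their non-crosslinked ratios between -1.75 and -1.11. Zfp207 also held Zfp207_exon9_5 among the 50 members between the other groups, with crosslinked ratios of 0.17 and 0.04 and a non-crosslinked ratio of -1.19.

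**Figure D3:**
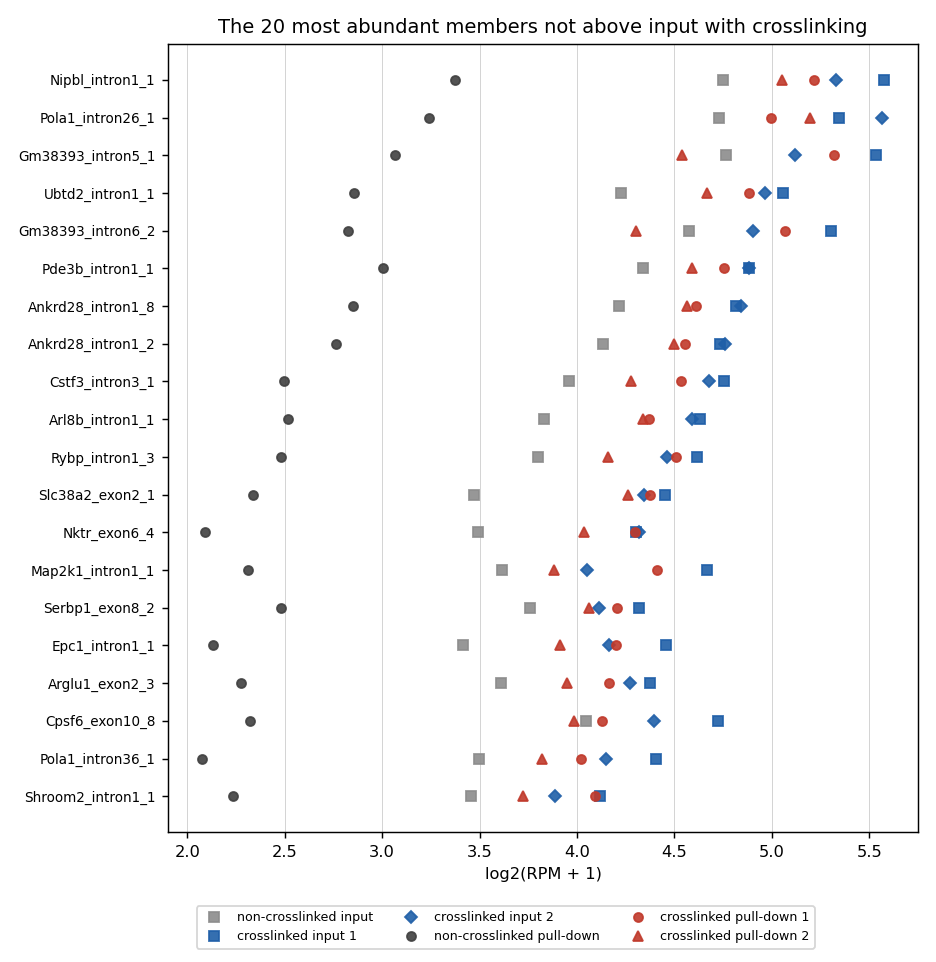
Level of the 20 most abundant members with both crosslinked ratios at or below 0, as log2(RPM + 1) in every library, with symbols as in the plot of the members higher in the pull-down. The no-UV pull-down (black circle) is the lowest library in all 20, and the UV pull-downs (red) lie at or below their own UV inputs (blue).

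In the fit of UV pull-down against input over all features, edgeR called 739 exons and introns higher (3.47%) and 501 lower (2.35%). The lower count moved with the setting. It was 36 with DESeq2, 994 with limma, 227 without the second UV pull-down, 288 without the first UV input and 836 without the second UV input. Without the filter on low values it was 0 (5705 at an unadjusted p under 0.05). The higher count was 129 of 3093 at a mean of at least 5 RPM, and 0 without the filter (6520 at an unadjusted p under 0.05). Of the members, 34 were called higher and 0 lower (12 at an unadjusted p under 0.05), namely 29 of the 33, 5 of the 50 and 0 of the 99. The 5 were introns of Gm21887, Sgcd, Gm10778 and Stip1 and an exon of Nsun3. At a mean of at least 5 RPM, 7 of 98 members were called higher. Without the filter 0 were (48 at an unadjusted p under 0.05). The rule used these libraries, so these counts are no test of the members. Both pull-downs exceeded both inputs in 54 members, against 8.14% of all features, and both lay below both inputs in 64, all among the 99, against 56.6% of all features. The difference between the crosslinked and the non-crosslinked ratio was also fitted with edgeR over all 6 libraries, with the lone non-crosslinked libraries assumed to vary like the others. It called 0 of 21282 features, with 3194 at an unadjusted p under 0.05 and a smallest adjusted p of 0.335. Of these 3194, 2892 were higher with crosslinking, which is 90.5% of them and 13.6% of all 21282.

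The rule had no gap at its threshold. The smaller excess of the 2 crosslinked pairs lay under 1.1 in 81 of the 182 members, at 1.5 or above in 16 and at 2 or above in 7. Just inside stood Jph1_intron1_2, with a smaller excess of 1.00 and ratios of -0.15, -0.44 and -1.45. Just outside stood Zfand5_exon6_1, at 0.999 with ratios of -0.45, -0.53 and -1.53. Fem1c_intron2_1 and Kansl1_intron1_6 were the next inside, and Top1_exon2_2 and Pbdc1_intron5_2 the next outside. Between 0.9 and 1 lay 151 further features. With a pseudocount of 0.5 RPM in place of 1 the rule kept 628 features, 180 of the 182 among them, and with 2 RPM it kept 39, all of them among the 182. The second pair alone would have kept 417 features and the first alone 424.

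Position in the transcript was not used by the rule. Among the 79 exons of all 182 members, 25.3% were first exons and 73.4% were the last exon of their gene model (the highest exon number listed for it), near the 23.1% and 76.2% over all exons past the filter. The groups of members, which were split by their crosslinked ratios, had other shares. Among the 15 exons of the 33 pulled-down members, 9 were first exons (60.0%), of which 3 were exons of Dgcr6 that share reads, and 5 were last exons (33.3%). Among the 24 exons of the 50 members between, 10 were first (41.7%) and 17 last (70.8%). Among the 40 exons of the 99 members not above input, 1 was a first exon (2.5%) and 36 were last exons (90.0%). Among introns, the first intron made up 6 of 18 (33.3%) of the pulled-down members, 7 of 26 (26.9%) of those between, 29 of 59 (49.2%) of those not above input, 40.8% of all members and 41.9% of all features. The groups also differed in level, with a median no-UV input of 0.0707 RPM in the 33, 2.53 in the 50 and 6.31 in the 99. Over all features it was 1.26 RPM. In genes with several exons, the exon most read in the UV inputs was the last in 86.7% (+ strand) and 86.3% (− strand). It was the first in 4.10% and 4.59%. Whether the shares of the groups follow level was not tested. An exon of a model with a single exon is both first and last. Exons are numbered here as the file names them, and the members of 1 gene are not independent, so these shares carry no test.

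**Figure D4:**
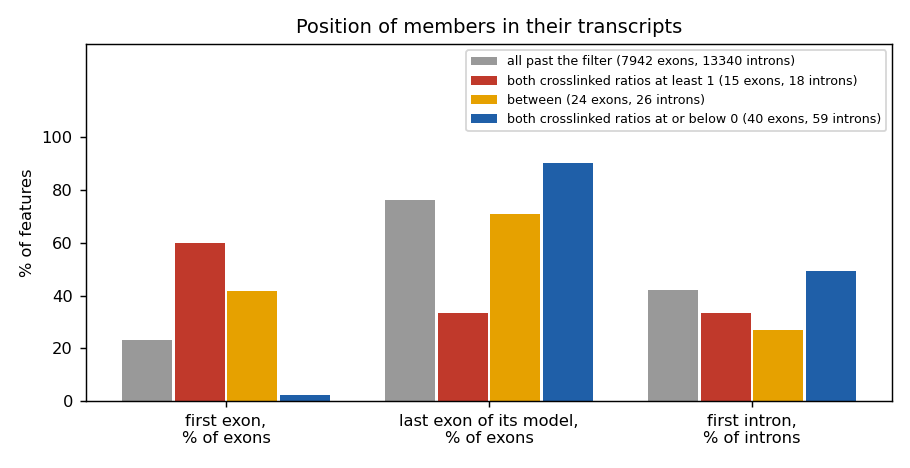
Share of exons that are the first or the last exon of their gene model, and of introns that are the first intron, in all features past the filter (grey) and in the 3 groups of members. First exons make up 60.0% of the exons in the 33 members higher in the pull-down (red) and 2.5% in the 99 not above input (blue), against 25.3% over all members.

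Of the 157 host genes, 154 were matched in the RefSeq table of the GRCm38 build. Their median length was 61.1 kb, against 40.3 kb for all matched hosts of features past the filter. On chromosome X lay 9 of them (5.84%), against 3.48% of all. A tRNA gene lay within 3 of the 154 spans (1.95%), against 17 of 6725 (0.253%) of all. Among these were n-TEttc4 in Elf1 at chr14:79481668-79481739 and n-TWcca2 in Tmpo at chr10:91181412-91181483. The former lies 0.494 kb from the start of Elf1, whose member was its first intron. The latter lies 0.269 kb from the start of Tmpo, a gene of 34.2 kb. The Tmpo member was exon 9, the last of its gene model, so by its number it lay toward the other end. The files give no coordinates for exons and introns, so whether the members of the other hosts contain the tRNA was not determined. Shares of hosts with a snoRNA (4.55% against 4.03%), a miRNA (4.55% against 5.68%) or an snRNA (3.90% against 2.77%) were nearer to those of all hosts.

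Members were scattered over genes. In 18 of the hosts lay 2 or more members, 43 in all, and the rest had 1 each. The same hosts carried 753 other exons and introns past the filter, in 126 genes, that were not members. In these, both crosslinked ratios exceeded the non-crosslinked ratio in 552 (73.3%), with a median smaller excess of 0.25. Over all features the share was 66.2% and the median 0.14. For hosts of the 33 pulled-down members the share was 53.5% of 43 features, with a median of 0.04. Neighbouring features can share reads with members.

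The pre-mRNA features of the host genes were listed apart from exons and introns, and the rule did not use them. How the authors defined the pre-mRNA class is not given in the sources used here. Whether a read could be shared between this class and exons or introns was not checked. Of 157 hosts, 153 had such a feature and 94 passed the filter. Their median ratios were -0.48 and -0.48 in the crosslinked pairs and -0.32 in the non-crosslinked pair, against -0.45, -0.37 and -0.24 for all 2561 pre-mRNA features tested. Both crosslinked ratios exceeded the non-crosslinked one in 12 of the 94 (12.8%), against 17.8% of all, and none of the 94 reached an excess of 1 in both pairs, against 2 of all 2561.

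Of the 94, edgeR with Benjamini-Hochberg adjustment over all features tested called 2 higher (background 0.469% of pre-mRNA features) and 17 lower (background 11.5%). The call of lower features depended on the setting: 5 were lower with TMM factors and 0 with DESeq2 (5 at an unadjusted p under 0.05), against 30 with limma, and leaving out 1 library gave 6 without the second UV pull-down, 11 without the first UV input and 26 without the second UV input. Tra2a, whose member Tra2a_exon1_1 is the last as well as the first exon of its gene model by the file's numbering, had 3.15 and 2.50 RPM of pre-mRNA in the UV inputs and 1.12 and 0.948 RPM in the UV pull-downs, a log2 change of -1.35 (SE 0.207, edgeR adjusted p = 0.00961). Its no-UV pull-down held 1.29 RPM and its input 1.70 RPM. Nipbl pre-mRNA was lower as well, with 12.4 and 12.8 RPM in the UV inputs against 7.45 and 4.99 RPM in the UV pull-downs, a log2 change of -0.93 (SE 0.208, edgeR adjusted p = 0.0418). Ankrd28 pre-mRNA (-1.09) and that of Ptbp2 were called lower too. Peak1 pre-mRNA, called higher, had 0.458 and 0.597 RPM in the UV inputs and 1.55 and 1.90 RPM in the UV pull-downs, a log2 change of 1.78 (SE 0.249, edgeR adjusted p = 0.00656). Its no-UV pull-down held 1.97 RPM and its input 0.707 RPM. The ratio without crosslinking, 0.80, was thus close to the 0.81 and 0.86 with it. Peak1 was named after its values were seen.

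**Figure D5:**
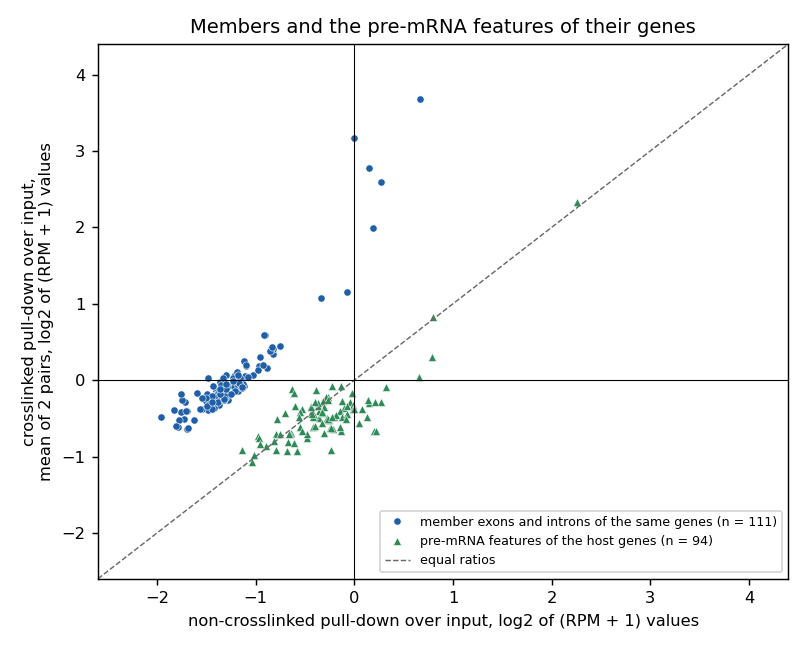
Log2 ratio of the non-crosslinked pair (horizontal) against the mean of the 2 crosslinked pairs (vertical), on (RPM + 1) values, for member exons and introns (blue circles) and for the 94 pre-mRNA features of the same genes (green triangles). The circles lie above the line of equal ratios, and most triangles lie around or below it.

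Counts for gene lists of tRNA, translation and splicing are given beside the shares of all 21282 exons and introns, which were 0.855% for members, 3.47% for higher and 2.35% for lower calls. Of 163 exons and introns of 23 translation elongation and initiation factors, edgeR called 5 higher (3.07%) and 17 lower (10.4%) in the UV pull-down, and 2 (1.23%) were members, Eef1a1_exon1_8 and Eif4b_intron1_1. Of 139 features of 27 splicing factors, 1 was called higher (0.719%) and 3 lower (2.16%), and 2 (1.44%) were members, in Tra2a and Tra2b. These 2 shares of members rest on 2 features each and are read as near the share of all features. Ribosomal protein genes held 352 features, of which 9 were called higher (2.56%) and 30 lower (8.52%), and 0 members. snoRNA host genes (110 features) and genes of the cytoskeleton and chaperones (101 features) had 9 and 2 called higher, 10 and 5 called lower, and 0 members each. The lists of aminoacyl-tRNA synthetases (49 features), tRNA processing (16), RNA polymerase III (20), replication-dependent histones (67) and the piRNA pathway (1) held 0 members and 0 calls.

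The authors' deposited table of enrichment ratios lists 175 of the 182 members, all of them above 1, as were 75.7% of all exons and introns in it. The median ratio in the authors' deposited table was 28.5 for 26 of the 33 members higher in the pull-down, 2.26 for the 50 between and 1.53 for the 99 not above input. Over all 205143 exons and introns in the authors' deposited table the median was 1.38. Gsap_intron2_10 had the highest ratio of any exon or intron in the authors' deposited table, 1179.62. How these ratios combine the libraries is not given in the sources used here.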

How the data were processed

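Expected counts of reads per annotated feature, fractional where reads were shared between features, and RPM values scaled to all reads of a library were deposited by the authors for each of 6 libraries. Per the submitters' processing notes, bcl2fastq 2.19, STAR 2.5.2b, bedtools 2.29.0 and the build mm10 were used. Annotation, strand use and duplicate removal are not given in the sources used here. Members were found on the deposited RPM values with a pseudocount of 1 RPM. The ratios in the authors' deposited table were copied as they stand.

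Counts were rounded and tested with edgeR 4.0.16 (quasi-likelihood) in R 4.3.3 on all 39872 features of any class whose mean over the 4 crosslinked libraries reached 1 RPM. Library sizes were the annotated reads, leaving out the 6.99% to 14.4% without annotation, and calls had a Benjamini-Hochberg adjusted p under 0.05. In simulated libraries of 39872 features, 183 of 200 features changed by 2 (log2) were recovered, and 11 of 194 calls were false. DESeq2 1.42.0, limma 3.58.1 and the settings of the closing section were alternatives, and the fit of the excess over 6 libraries was added after seeing the data. The members and gene lists were chosen with earlier results of these data known. Features named were the 15 members highest in the crosslinked pull-downs, the 10 with the largest smaller excess, those in listed genes, those in genes with 2 or more members, and 3 features on each side of the threshold; others are marked as named after their values were seen. No intron or exon sequence was used here, and the values of some members are not reported here. p-values, SDs and SEs measure only the spread between these libraries, which may be technical. The upper limits given for libraries without a read cover counting error only.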

Additional observations from a re-analysis of the deposited data

Results flagged for a closer look

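Of the 94 host pre-mRNA features past the filter, 9 (9.57%) were below input in both crosslinked pairs and above input in the non-crosslinked pair, as log2 ratios of (RPM + 1) values. Over all 2561 pre-mRNA features past the filter, 414 (16.2%) showed the same signs. Host pre-mRNA features under the filter are not counted here. The difference was not tested, since the non-crosslinked pair is a single pair of libraries. The non-crosslinked ratios were 0.27 for Serbp1, 0.21 for Stip1, 0.21 for Wdr70, 0.20 for Pmpca, 0.15 for Klhdc2, 0.13 for Top1, 0.13 for Tlk1, 0.073 for Epc1 and 0.049 for Eef1a1. The crosslinked ratios of these 9 lay between -0.92 (Eef1a1, first pair) and -0.11 (Klhdc2, first pair). Exons or introns of the same 9 genes were members, with ratios that moved the other way by the rule. The 50 members between the other groups had a median non-crosslinked ratio of -1.09 against crosslinked medians of 0.12 and 0.12, a difference that the rule selects for and that was not tested.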

How the results depend on the processing

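The count of 182 members rested on the thresholds. It was 628 with a pseudocount of 0.5 RPM, 39 with 2 RPM, 98 with a mean of at least 5 RPM, 16 with an excess of at least 1.5, and 417 to 424 when 1 pair was left out. It was 146 with crossed pairs, of which 108 were shared, and 256 with RPM of annotated reads. The median excess of 1.20 became 1.44 and 0.95 with a pseudocount of 0.5 and 2 RPM, and 1.17 to 1.21 with 1 pair. Calls of lower exons and introns (501) were 154 with TMM factors, 36 with DESeq2, 994 with limma, 116 at a mean of at least 5 RPM and 227 to 836 with 1 library left out. Calls of higher ones (739) were 129 at a mean of at least 5 RPM and 727 to 808 with 1 library left out. Among members, 34 higher calls became 7 at a mean of at least 5 RPM and 34 to 41 with 1 library left out, and 0 lower calls (12 at an unadjusted p under 0.05) became 3 with limma and 0 to 1 with 1 library left out.

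Among pre-mRNA features of the hosts, 17 lower calls became 5 with TMM factors, 0 with DESeq2 (5 at an unadjusted p under 0.05), 30 with limma, 3 at a mean of at least 5 RPM and 6 to 26 with 1 library left out. The 2 higher calls became 0 at a mean of at least 5 RPM, where 19 were tested and 0 had an unadjusted p under 0.05, and stayed at 2 with 1 library left out. Without the filter, edgeR called 0 exons and introns higher (6520 at an unadjusted p under 0.05) and 0 lower (5705), 0 members higher (48) and 0 pre-mRNA features of the hosts higher (5) or lower (48). The cause was not tested, beside the larger or smaller number of features tested.

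With the replicate number as a block, edgeR called 752 exons and introns higher and 586 lower, 39 members higher and 1 lower, and 2 pre-mRNA features higher and 20 lower. The labels do not say that a number marks a shared culture or lysate. The deviations of same-numbered libraries had r = 0.11 over 21282 features in 2 pairs, which does not settle whether the numbers pair the libraries. With all 6 libraries in 1 fit the members called were 34 higher and 0 lower (9 at an unadjusted p under 0.05). When 1 library was left out, its partner was assumed to vary like the other group. Depth limits the 19 members with 3 or fewer reads in the non-crosslinked pull-down and the 25 with 3 or fewer in its input.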
